A study of Sus scrofa with 2 samples.

Results

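The genes described here are the ghrelin receptor GHSR and other receptors for hormones and peptides of energy balance, namely LEPR, INSR, IGF1R, IGF2R, GHR, MC4R, NPY1R, NPY2R and NPY5R. The 10 receptors were chosen by symbol, with earlier results of these data known, and 9 of them had a gene ID among the 25322 IDs of the table; no ID was paired with MC4R. Hippocampal RNA of Rongchang piglets (Sus scrofa) was sequenced in 1 sample given the agent iron dextran, an injectable iron supplement used against anaemia of newborn pigs, and in 1 control sample. Both carry the genotype label wide type and the developmental stage piglet; the sources used here do not give dose, time after treatment, age in days, sex or number of animals. Each sample's description holds 2 names, which may stand for animals, libraries or runs; the labels do not say which. The comparison asked how hippocampal transcripts differed with iron dextran. With 1 sample per group no test was made, no difference below has a replicate check, and no spread exists that would show which neighbouring levels differ.

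These receptors bring signals of nutritional state into the brain. GHSR is a G protein-coupled receptor that couples mainly to Gq and calcium release; it binds acylated ghrelin, a stomach hormone of hunger, and has marked activity without a ligand. NPY1R, NPY2R and NPY5R are Gi-coupled receptors of neuropeptide Y, which interneurons release in the hippocampus, and MC4R is the Gs-coupled receptor through which melanocortins lower food intake. INSR and IGF1R are receptor tyrosine kinases, LEPR and GHR are cytokine-type receptors that signal through JAK2, and IGF2R carries IGF2 and lysosomal enzymes to lysosomes. In rodents GHSR is found in hippocampal neurons, the dentate gyrus among them.

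Levels are given as FPKM, fragments scaled by transcript length and by mapped fragments, as the authors deposited them. The FPKM values summed to 850165 in iron dextran and 924070 in control, with 16865 IDs above 0 in iron dextran and 16727 in control. The number of fragments is unknown; steps between the lowest values put the depth of iron dextran at 1.06 times that of control. Differences are on the log2(FPKM + 1) scale and subtract control from iron dextran, a scale that understates the change of low genes. Over the 12557 genes whose mean FPKM was at least 1, the median difference was −0.0046, with quartiles at −0.12 and 0.14. Scaling both columns to the same total moved that median to 0.10, and differences under that scaling are to be read against this shift. Neuronal markers were high (SNAP25 at 952 FPKM in iron dextran and 1032 in control).

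GHSR (ENSSSCG00000020906) stood apart from the other receptors. It had 14.9 FPKM in the iron dextran sample and 5.94 FPKM in the control sample, a ratio of 2.503 and a log2 difference of 1.19. The difference was 1.18 after rescaling by a trimmed mean of M values and 1.31 with the same column total. It was the 1 receptor of the 4 with a mean FPKM of at least 1 past 1.5-fold upward in iron dextran, and none of the 4 was at least 1.5-fold lower. Over all 12557 genes, 2.47% were at least 1.5-fold higher and 1.47% at least 1.5-fold lower; among the 4380 genes with a mean FPKM of 5 to 20, the range that holds GHSR, 2.01% were higher by that much. GHSR was picked for its difference, so its count is a description. It ranked 67 from the top of the 12557 genes, and 38 of the genes ahead of it were listed at 0 in control. Among the 12495 genes above 0 in both samples it ranked 29.

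The same 2 values of GHSR can be set beside those of the other receptors, which adds no separate result. In iron dextran GHSR lay level with both abundant neuropeptide Y receptors, while in control it lay well under both. Its FPKM was 0.98 of that of NPY1R in iron dextran and 0.428 in control. Against NPY5R the quotient was 1.01 in iron dextran and 0.366 in control. These quotients are taken within a sample, so no scaling of the columns alters them; they show unequal differences and not which of the genes moved. Among all IDs above 0, the level of GHSR was at percentile 70.8 in iron dextran and 53.7 in control. GHSR made up 31.1% of the summed FPKM of the 9 receptors in iron dextran, against 15.3% in control. Without GHSR the sums were 33.03 FPKM in iron dextran and 32.8 FPKM in control. Tissue was sequenced in bulk, so fewer cells of a type and less RNA per cell cannot be told apart.

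**Figure D1:**
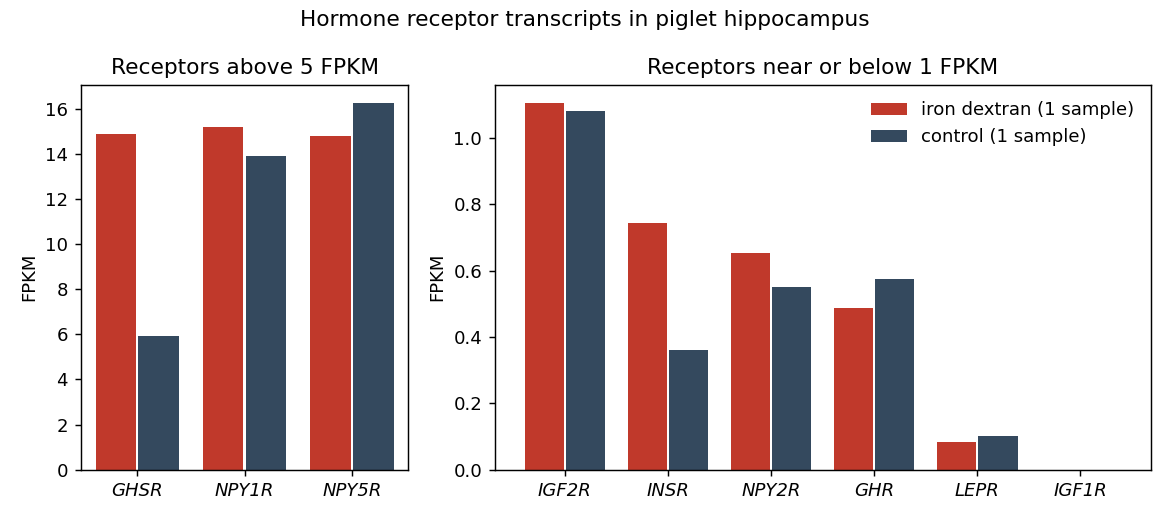
FPKM of 9 hormone receptor genes (bars, from 0) in the 1 iron dextran sample (red, left) and the 1 control sample (blue, right), with separate axes for receptors above 5 FPKM and for those near or below 1 FPKM. GHSR had 14.9 FPKM in iron dextran and 5.94 in control, NPY1R and NPY5R lay between 13.9 and 16.2 in both samples, and IGF1R was listed at 0 in both.

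The neuropeptide Y receptors comprised an abundant pair and 1 scarce receptor. NPY1R (ENSSSCG00000008888), which mediates postsynaptic actions of the peptide and its appetite effect, had 15.2 FPKM in iron dextran and 13.9 FPKM in control, a log2 difference of 0.12. NPY5R (ENSSSCG00000008889), another feeding receptor, had 14.8 FPKM in iron dextran and 16.2 FPKM in control, a log2 difference of −0.13. The differences of this pair had opposite signs, and neither was past 1.5-fold. NPY5R was the more abundant of the pair in control and NPY1R in iron dextran, with a quotient of NPY1R to NPY5R of 1.03 in iron dextran and 0.856 in control. With the same column total, the log2 difference of NPY5R was −0.0159 and that of NPY1R was 0.23, so both signs held. NPY1R and NPY5R are next to each other among protein-coding genes in the Sscrofa11.1 assembly. The use of strand is not given, so any overlap of their transcripts in the annotation used by the authors would leave their reads uncertain.

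NPY2R (ENSSSCG00000008993), the presynaptic receptor that restrains transmitter release, had 0.655 FPKM in iron dextran and 0.551 FPKM in control. NPY1R had 23.2 times the FPKM of NPY2R in iron dextran and 25.2 times in control. Summed over the 3 receptors, the level was 30.6 FPKM in iron dextran and 30.7 FPKM in control, so the summed level was nearly equal while its parts shifted by small amounts. NPY2R lay below a mean of 1 FPKM and was not counted.

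Of the insulin and IGF receptors, IGF2R was level between samples and INSR was not. IGF2R (ENSSSCG00000004044) had 1.11 FPKM in iron dextran and 1.08 FPKM in control, a log2 difference of 0.02. INSR (ENSSSCG00000013566), which binds insulin and in its short form IGF2, had 0.745 FPKM in iron dextran and 0.362 FPKM in control, a ratio of 2.06. Its log2 difference was 0.36 with a pseudocount of 1 and 1.02 with a pseudocount of 0.01. INSR lay below a mean of 1 FPKM, where such ratios are frequent: of 2177 genes above 0 in both samples with a mean FPKM from 0.25 up to 1, 12.1% had a ratio of at least 2 in the same direction. The quotient of INSR to IGF2R was 0.674 in iron dextran and 0.335 in control. INSR was at percentile 21.9 of the IDs above 0 in iron dextran and 15.1 in control.

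IGF1R (ENSSSCG00000030560), the main receptor of IGF1 on neurons and glia, was listed at 0 in both samples. Such a 0 may be an estimate that failed: the ribosomal protein gene RPS21 and the haem enzyme gene COX10, both needed in every cell, were also listed at 0 in both. No level of IGF1R is therefore given.

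The cytokine-type receptors were scarce. GHR (ENSSSCG00000016866), the growth hormone receptor, had 0.488 FPKM in iron dextran and 0.576 FPKM in control, a log2 difference of −0.08. LEPR (ENSSSCG00000025188), the leptin receptor, had 0.0848 FPKM in iron dextran and 0.102 FPKM in control, a log2 difference of −0.02. LEPR was the lowest of the receptors above 0, at percentile 4.69 of the IDs above 0 in iron dextran and 5.82 in control. LEPROT, which lies beside LEPR in Sscrofa11.1 and encodes a protein that limits leptin and growth hormone receptors at the cell surface, had 31.9 FPKM in iron dextran and 36.7 FPKM in control. LEPR and GHR were lower in iron dextran by small amounts under each scaling tried, and both lay below a mean of 1 FPKM. In all, 5 of the 9 receptors did not reach that mean. The median log2 difference of the 4 that did was 0.07, beside −0.0046 over all genes.

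**Figure D2:**
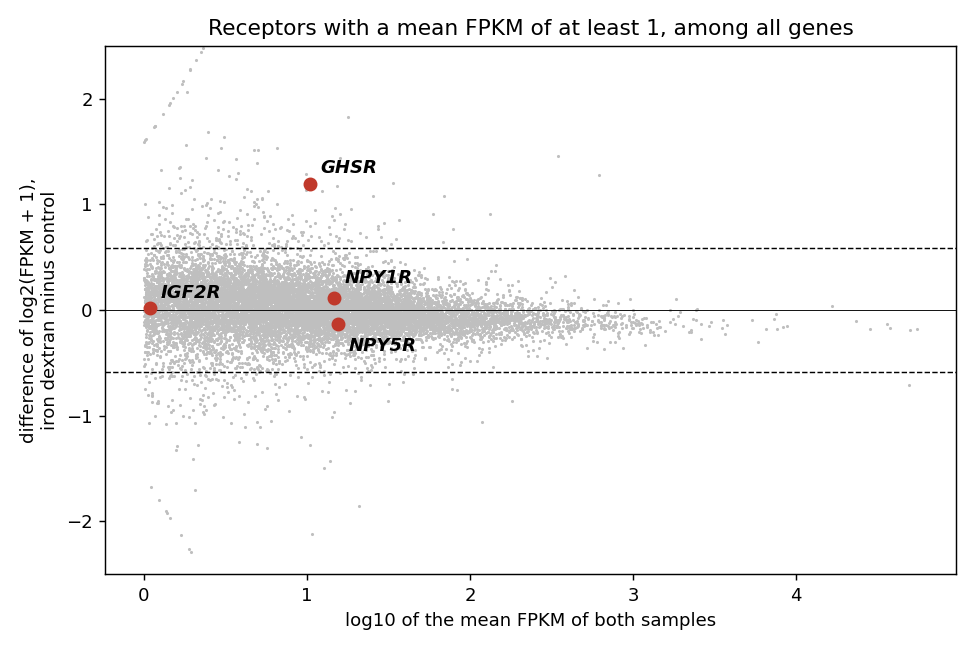
Log2(FPKM + 1) in iron dextran minus that in control (vertical axis), against log10 of the mean FPKM of both samples (horizontal axis) for genes whose mean FPKM was at least 1 (grey points) and the 4 receptors among them (red). Dashed lines mark 1.5-fold; 37 genes beyond 2.5 either way are not drawn. GHSR lies at 1.19, while IGF2R, NPY1R and NPY5R lie between −0.13 and 0.12.

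Of 18 ligands of these receptors and enzymes that process them, 11 had an ID and 6 a mean FPKM of at least 1. None of the 6 was past 1.5-fold in either direction, and their median log2 difference was 0.14. With 2.47% of all genes higher and 1.47% lower by that much, a 0 in so small a list says little. GHRL, which encodes ghrelin, was listed at 0 in both samples, which may be a failed estimate as for IGF1R, and MBOAT4, the enzyme that acylates ghrelin, had 0.0336 FPKM in iron dextran and 0.0352 FPKM in control. NPY had 202 FPKM in iron dextran and 185 FPKM in control, a log2 difference of 0.13. IGF1 had 1.53 FPKM in iron dextran and 1.25 FPKM in control. AGRP, the antagonist at melanocortin receptors, and PPY, pancreatic polypeptide, were listed at 0 in iron dextran and had 0.218 and 0.839 FPKM in control; both lay below a mean of 1 FPKM and were not counted.

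Enzymes that mature neuropeptides were abundant in both samples, DPP4 excepted. The prohormone convertase PCSK1, which cleaves proghrelin and other precursors, had 15.8 FPKM in iron dextran and 13.7 FPKM in control. PCSK2, another neuroendocrine convertase, had 26.4 FPKM in iron dextran and 25.2 FPKM in control. Carboxypeptidase E, encoded by CPE, had 985 FPKM in iron dextran and 918 FPKM in control. PAM, which amidates peptides such as NPY, had 101 FPKM in iron dextran and 90.5 FPKM in control. The protease DPP4, which trims NPY and thereby shifts its receptor preference, had 0.208 FPKM in iron dextran and 0.346 FPKM in control. No ID was paired with LEAP2, LEP, INS, IGF2, GH1, POMC or PYY.

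The list of IGF binding proteins also held IGFALS, STC1, STC2 and the proteases PAPPA and PAPPA2. It had 5 measured genes of 12 listed, IGFALS among them. None was past 1.5-fold, beside 2.47% of all genes higher and 1.47% lower. The median log2 difference of these 5 genes was −0.08. With the same column total it was 0.02, still below the median of 0.10 over all genes. IGFBP7 had 240 FPKM in iron dextran and 295 FPKM in control, a log2 difference of −0.29. IGFBP6 had 20.5 FPKM in iron dextran and 23.2 FPKM in control. IGFBP5 had 1.86 FPKM in iron dextran and 1.53 FPKM in control. IGFBP4 had 23.7 FPKM in iron dextran and 25.2 FPKM in control. With the same column total its log2 difference was 0.03, also below 0.10.

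Genes that regulate these receptors had 16 measured members of 20 listed and a median log2 difference of 0.02. None was past 1.5-fold, beside 2.47% of all genes higher and 1.47% lower. MRAP2, an accessory protein of both GHSR and MC4R, had 7.15 FPKM in iron dextran and 6.26 FPKM in control. ARRB2, the arrestin that ends signalling of G protein-coupled receptors, had 50.6 FPKM in iron dextran and 60.5 FPKM in control. GRK3, a kinase that marks such receptors for arrestin, had 16.98 FPKM in iron dextran and 14.96 FPKM in control. ATRNL1, which binds MC4R in the mouse, had 2.97 FPKM in iron dextran and 2.33 FPKM in control.

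In the signalling arms downstream, no measured gene was past 1.5-fold, beside 2.47% of all genes higher and 1.47% lower. At those shares only a few genes would be expected, so the 0 says little about these arms. The Gq and calcium arm, the route of GHSR, had 9 measured genes of 15 listed. Its median log2 difference was 0.18, beside −0.0046 over all genes, with 7 genes above 0 and 2 below. The sum over the 12 genes of this arm with an ID went the other way, with 198 FPKM in iron dextran and 206 FPKM in control. PLCB1, the phospholipase activated by Gq, had 5.81 FPKM in iron dextran and 4.49 FPKM in control, a log2 difference of 0.31. PRKCA, a protein kinase C, had 3.91 FPKM in iron dextran and 3.17 FPKM in control. CAMKK2, the calcium-dependent kinase upstream of AMPK, went the other way, with 79.5 FPKM in iron dextran and 92.8 FPKM in control. PRKAA1, a catalytic subunit of AMPK, had 1.21 FPKM in iron dextran and 0.901 FPKM in control.

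The cyclic AMP arm, used by the neuropeptide Y receptors and MC4R, had 12 measured genes of 18 listed and a median log2 difference of 0.03. ADCY9, an adenylyl cyclase, had 5.15 FPKM in iron dextran and 7.07 FPKM in control, a log2 difference of −0.39. KCNJ6, a potassium channel opened by Gi-coupled receptors, had 2.02 FPKM in iron dextran and 1.37 FPKM in control, a log2 difference of 0.35. GNAL, a stimulatory G protein subunit, had 7.07 FPKM in iron dextran and 6.38 FPKM in control, and the cyclase ADCY3 had 6.12 FPKM in iron dextran and 5.62 FPKM in control.

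The insulin and IGF kinase arm had 23 measured genes of 32 listed and a median log2 difference of −0.05. With the same column total it was 0.06, still below the median of 0.10 over all genes. SOS1, which links receptor kinases to Ras, had 2.13 FPKM in iron dextran and 1.496 FPKM in control. PIK3CB, a PI3-kinase subunit, had 1.95 FPKM in iron dextran and 1.44 FPKM in control. IRS1, the docking protein of INSR and IGF1R, had 1.497 FPKM in iron dextran and 1.19 FPKM in control. EIF4EBP1, the translation repressor that mTOR inactivates, had 17.5 FPKM in iron dextran and 21.3 FPKM in control.

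The JAK-STAT arm of LEPR and GHR had 12 measured genes of 15 listed and a median log2 difference of 0.09. JAK1, a kinase used mostly by interferon and interleukin receptors, had the largest absolute difference of this arm, with 11.8 FPKM in iron dextran and 8.25 FPKM in control (log2 difference 0.47). JAK2, the kinase of LEPR and GHR, had 1.404 FPKM in iron dextran and 1.07 FPKM in control. The phosphatase PTPN2 had 5.19 FPKM in iron dextran and 4.12 FPKM in control, while PTPN1, which restrains leptin and insulin signalling, had 11.3 FPKM in iron dextran and 13.3 FPKM in control.

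Among 52 other receptors of metabolic and appetite hormones, 37 had an ID and 17 a mean FPKM of at least 1. Of the 17, 1 was past 1.5-fold upward in iron dextran, beside 2.47% of all genes, and none was past it downward; the median log2 difference was 0.04. The 1 receptor was CALCR, the calcitonin receptor, which with RAMP proteins also binds amylin, a pancreatic satiety hormone. CALCR had 38.3 FPKM in iron dextran and 21.2 FPKM in control, a log2 difference of 0.82, smaller than that of GHSR at a higher level. ADIPOR2, a receptor of the fat hormone adiponectin, had 12.9 FPKM in iron dextran and 8.32 FPKM in control, a log2 difference of 0.57, just under the 0.58 that 1.5-fold requires. HCRTR2, an orexin receptor named after its values were seen, had 1.44 FPKM in iron dextran and 0.894 FPKM in control. The count of 1 depends on the pseudocount: with 0.1 in place of 1, CALCR, ADIPOR2 and HCRTR2 made it 3 of 17, beside 4.44% of all genes higher and 2.64% lower by 1.5-fold on that scale. With the same column total it was 2, CALCR and ADIPOR2. SSTR1, a somatostatin receptor, had 18.4 FPKM in iron dextran and 13.3 FPKM in control, and HCRTR1, the other orexin receptor, had 2.48 FPKM in iron dextran and 1.67 FPKM in control. MLNR, the motilin receptor and close relative of GHSR, had 0.0831 FPKM in iron dextran and was listed at 0 in control. MC3R, the other central melanocortin receptor, was listed at 0 in both samples, which may be a failed estimate as for IGF1R.

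**Figure D3:**
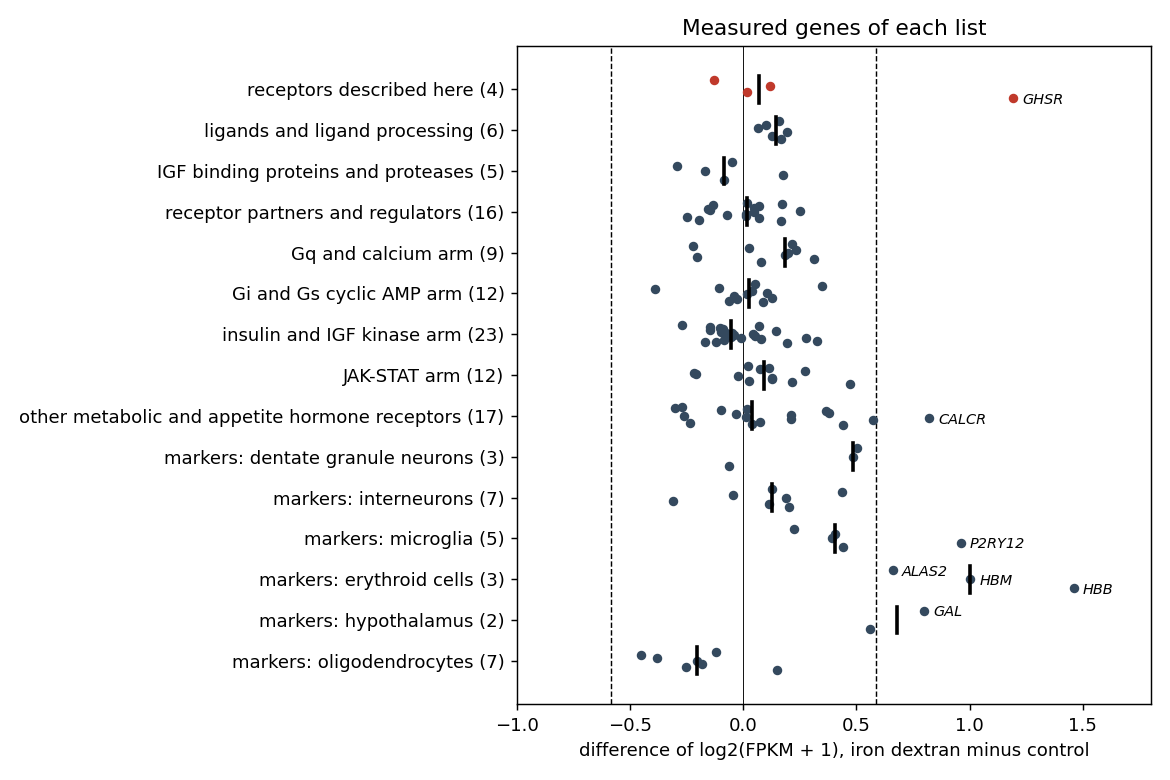
Log2(FPKM + 1) in iron dextran minus that in control (horizontal axis), for each gene with a mean FPKM of at least 1 (points) in the receptors described here, 8 lists of related genes and 6 lists of cell type or tissue markers; the number of genes is in brackets, black bars are medians and dashed lines mark 1.5-fold. Only GHSR (1.19) and CALCR (0.82) pass 1.5-fold in the first 9 rows.

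Markers of several cell types differed between the samples in either direction, and their part in the difference of GHSR was not tested. Of 10 hypothalamic markers, 7 had an ID, with a summed level of 5.03 FPKM in iron dextran and 2.69 FPKM in control. Both hypothalamic markers with a mean FPKM of at least 1 were higher in iron dextran. GAL, the neuropeptide galanin, had 2.72 FPKM in iron dextran and 1.14 FPKM in control, and AVP, vasopressin, had 1.64 FPKM in iron dextran and 0.792 FPKM in control. PMCH, melanin-concentrating hormone, had 0.508 FPKM in iron dextran and 0.106 FPKM in control. HCRT, the orexin precursor, was lower in iron dextran, at 0.161 FPKM against 0.432 FPKM in control, AGRP was listed at 0 in iron dextran, and OXT and GHRH were listed at 0 in both. Of 9 pituitary markers, 5 had an ID, with summed levels of 0.449 FPKM in iron dextran and 0.278 FPKM in control. TSHB, FSHB and TBX19 were listed at 0 in both. For these hypothalamic and pituitary markers too, a 0 in both samples may be a failed estimate, as for IGF1R.

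For the dentate gyrus, 3 of 8 granule cell markers reached a mean FPKM of 1. None was past 1.5-fold with a pseudocount of 1, beside 2.47% of all genes higher and 1.47% lower. With a pseudocount of 0.1, 1 marker, CALB1, was past it upward, beside 4.44% of all genes higher and 2.64% lower. Counts in so short a list say little. C1QL3 had 16.5 FPKM in iron dextran and 11.5 FPKM in control, and CALB1 had 1.56 FPKM in iron dextran and 0.802 FPKM in control, a ratio of 1.94, while C1QL2 had 10.3 FPKM in iron dextran and 10.9 FPKM in control. Below a mean of 1 FPKM, DSP was lower in iron dextran, at 0.241 FPKM against 0.546 FPKM in control. PROX1, also below that mean, had 0.858 FPKM in iron dextran and 0.761 FPKM in control. The 6 dentate markers with an ID summed to 29.5 FPKM in iron dextran and 24.5 FPKM in control. TDO2 was listed at 0 in both, which may be a failed estimate as for IGF1R. The median log2 difference of the 3 measured dentate markers was 0.48. The 5 microglial markers with an ID, of 8 listed, summed to 95.5 FPKM in iron dextran and 70.6 FPKM in control. All 5 were higher in iron dextran, with a median log2 difference of 0.41. Of them 1, P2RY12, was past 1.5-fold (20.05 FPKM in iron dextran and 9.801 FPKM in control), beside 2.47% of all genes. The 4 erythroid markers with an ID, of 7 listed, summed to 519 FPKM in iron dextran and 189 FPKM in control. HBB, HBM and ALAS2, the 3 with a mean FPKM of at least 1, were at least 1.5-fold higher, beside 2.47% of all genes. The 7 interneuron markers, of 8 listed, summed to 796 FPKM in iron dextran and 791 FPKM in control. Their median log2 difference was 0.13, with none past 1.5-fold, beside 2.47% of all genes higher and 1.47% lower. At those shares a 0 among 7 genes says little. RELN had 4.29 FPKM in iron dextran and 2.92 FPKM in control, and PVALB had 84.4 FPKM in iron dextran and 105 FPKM in control.

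The other marker lists had no measured member past 1.5-fold with a pseudocount of 1, beside 2.47% of all genes higher and 1.47% lower. Oligodendrocyte markers had a median log2 difference of −0.21, with 6 of 7 below 0 and sums of 8628 FPKM in iron dextran and 9817 FPKM in control; GJB1 had 17.9 FPKM in iron dextran and 24.9 FPKM in control. Markers of meninges and fibroblasts had a median of −0.35 over 6 genes, with 4 below 0 and 2, DCN and LUM, above 0. Their sums were 46.4 FPKM in iron dextran and 51.96 FPKM in control. SLC13A4 had 1.18 FPKM in iron dextran and 2.05 FPKM in control. It was past 1.5-fold downward with a pseudocount of 0.1, beside 2.64% of all genes on that scale. The medians of pericyte and smooth muscle (−0.18, 5 genes), endothelial (−0.13, 4 genes) and CA3 and CA2 (−0.14, 4 genes) markers were below 0, and DES had 1.86 FPKM in iron dextran and 2.76 FPKM in control. Astrocyte markers had a median of 0.27 over 5 genes, with sums of 1530 FPKM in iron dextran and 1594 FPKM in control that GFAP led, at 1145 FPKM in iron dextran and 1275 FPKM in control. Choroid plexus markers had a median of 0.23 over 2 genes, with TTR at 24.2 FPKM in iron dextran and 19.9 FPKM in control. Another 3 had an ID but lay below a mean of 1 FPKM, and they were mixed. OTX2 had 0.0656 FPKM in iron dextran and 0.206 FPKM in control, and SLC4A5 had 0 and 0.077 FPKM. CLIC6 was higher, with 0.272 FPKM in iron dextran and 0.148 FPKM in control. The neuronal (−0.03, 6 genes) and CA1 (−0.03, 3 genes) medians were 0.09 and 0.08 with the same column total, beside 0.10 over all genes.

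The genes most like GHSR were sought by the distance between log2(FPKM + 1) values over the 2 samples, among all IDs with a symbol. The nearest was IFIT1, which binds viral RNA, with 13.9 FPKM in iron dextran and 5.797 FPKM in control, at a distance of 0.0931. IRF7, a transcription factor, followed with 12.9 FPKM in iron dextran and 6.75 FPKM in control, at a distance of 0.247. OAS2, an oligoadenylate synthetase, had 14.99 FPKM in iron dextran and 7.31 FPKM in control, at a distance of 0.26. HIGD1B had 10.7 FPKM in iron dextran and 6.28 FPKM in control, and ZMPSTE24, a protease that matures prelamin A, had 10.8 FPKM in iron dextran and 5.32 FPKM in control. With 2 samples, likeness here means only a similar level in each.

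In the Sscrofa11.1 assembly the protein-coding neighbours of GHSR are FNDC3B and TNFSF10. FNDC3B had 1.36 FPKM in iron dextran and 1.39 FPKM in control, a log2 difference of −0.02. No ID was paired with TNFSF10. The neighbour of NPY1R on the side away from NPY5R, NAF1, had 12.3 FPKM in iron dextran and 13.2 FPKM in control.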

How the data were processed

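The table deposited by the authors holds FPKM values, listed by Ensembl pig gene ID; each column was tied to the sample whose title has its letter. Per the labels' protocols, RNAiso plus was used for extraction and Illumina's standard steps for libraries. The submitters' processing notes name cutadapt 1.2.1, TopHat and the builds Sscrofa10.2 and susScr3. What program made the FPKM values, with which annotation and strand setting, is not given in the sources used here. Since FPKM depends on the column total, abundant genes shift all others.

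Symbols from a table of Ensembl IDs matched 11804 of 25322 IDs. RefSeq genes of Sscrofa11.1 gave only the order of neighbours, and no coordinates or sequences are given.

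Differences were taken of log2(FPKM + 1), iron dextran minus control, with Python 3.11.15, numpy 2.4.6 and pandas 2.3.3. Counts used a mean FPKM of at least 1 and 1.5-fold. With 1 sample per group no test was made. Relative depth came from 690 genes above 0 in both samples with a control FPKM under 0.1, of which 198 had ratios within 0.05 log2 units of a common value of 0.943; absolute depth is unknown, so no counting interval is given. The receptors, lists and alternatives were chosen with earlier results of these data known. Named are all 10 receptors, the measured ligand genes, the genes nearest to GHSR (5) and, in the lists of related genes, the 4 with the largest absolute difference each; of marker lists only leading examples are named. MRAP2, HCRTR2, MBOAT4, GHRL, AGRP, PPY, TDO2, DSP, PROX1, CLIC6, OTX2, SLC4A5, DCN, LUM, OXT, GHRH, TSHB, FSHB, TBX19, MLNR, MC3R, DPP4, PMCH, HCRT, RPS21, COX10 and the neighbours in the assembly were added after their values were seen. Calculations were tested on simulated data. Alternatives were other pseudocounts, filters, folds and scalings: columns centred on the median, a trimmed mean of M values (30% of M and 5% of A per side, unweighted) and the same total.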

Additional observations from a re-analysis of the deposited data

How the results depend on the processing

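The log2 difference of GHSR kept its sign and stayed past 1.5-fold under each of the 5 alternatives tried. It was 1.31 with a pseudocount of 0.1, 1.32 with 0.01 and 1.31 with the same column total. Smaller pseudocounts can only enlarge such a difference, and the scaling factors were near 1 (0.993 and 1.09). None of these settings could therefore have brought GHSR under 1.5-fold, and they do not replace replicates. GHSR was the 1 receptor counted as higher under 8 alternatives; without a filter and with a pseudocount of 0.01, a setting chosen after seeing the data, the count was 2, the other being INSR; either change alone left the count at 1. No receptor was counted as lower under any of 9 alternatives. The median stayed above 0 under all 8 alternatives, between 0.02 and 0.16; it covered 4 receptors under the 5 other pseudocounts and scalings, 3 where a mean of 5 FPKM was required, and 9, with IGF1R at 0, under both settings without a filter. No paired analysis was possible because each group holds 1 sample, and for the same reason no replicate could be left out. Absolute depth is unknown, so how far counting error reaches for INSR, NPY2R, GHR and LEPR cannot be stated.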

Other observations

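Dopamine and serotonin receptors reported to form complexes with GHSR in mouse tissue or cell lines were looked up after the values of GHSR had been seen. DRD1 had 0.188 FPKM in iron dextran and 0.0663 FPKM in control, and DRD2 had 0.5104 FPKM in iron dextran and 0.457 FPKM in control; both lay below a mean of 1 FPKM. HTR2C had 1.999 FPKM in iron dextran and 1.45 FPKM in control, a log2 difference of 0.29. DRD5, which is not known as such a partner but is the other D1-type receptor, had 2.13 FPKM in iron dextran and 1.74 FPKM in control, a log2 difference of 0.19. Neither HTR2C nor DRD5, the 2 with a mean FPKM of at least 1, was past 1.5-fold. No ID was paired with the serotonin receptor HTR2A. The oxytocin receptor OXTR, looked up in the same step, had 0.171 FPKM in iron dextran and 0.0908 FPKM in control.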
